A study of Drosophila melanogaster with 6 samples.

Results

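The 8 genes described here encode transcription regulators of the early ecdysone response in *Drosophila melanogaster*: *br*, *Eip74EF*, *Eip93F*, *Eip78C*, *Hr46* (also written *Hr3*), *Hr4*, *Blimp-1* and *tai*. They were chosen by name, and all 8 were found among the 17558 genes that the files list. The study compared fat body cells of adult females that expressed a hairpin against *Luc* (3 control libraries) with those of females that expressed a hairpin against the nuclear receptor gene *svp* (3 libraries labelled *svp* RNAi, written below as the *svp*-labelled libraries). Carcasses of 100 females per genotype were pooled, and their abdominal adipocytes and oenocytes were dissociated with trypsin and collagenase.

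Females of both groups carried *PromE800-Gal4*, which drives expression in oenocytes, *3.1Lsp2-Gal4*, which drives it in adipocytes, and a temperature-sensitive *tub-Gal80*, in a *y w* background. They were raised at 18°, and females 0 to 2 days old at collection were kept for some further days at 18° with *y w* males. RNAi was then induced by 5 days at 29°. The medium was supplemented with wet yeast paste. The *Luc* hairpin (*JF01355*) and the *svp* hairpin (*GD1546*) came from different stock collections, so the hairpin and the stock cannot be told apart. The sample labels give the control genotype as wild type. Nothing in the labels says that the samples were grown as separate cultures, whereas the methods speak of independent experiments, so the p-values below measure the spread between these samples, which may be partly technical.

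Ecdysone is the steroid hormone that times molting and metamorphosis in insects. Its active form binds EcR, which pairs with Usp, and the receptor complex switches on a small set of early genes that encode transcription factors. These factors in turn control later genes, and several of them act as temporal switches that allow one wave of the response to follow another. In adult females ecdysone is made mainly by the ovary, where it acts in oogenesis, and the fat body is one of the tissues that respond to it. Several of the 8 genes also act within the ovary. *br*, which encodes a family of zinc finger proteins with a BTB domain, patterns the follicle cells that make the dorsal eggshell, and *tai*, which encodes a coactivator of the p160 family, is required for border cell migration.

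Library totals ranged from 15648948 to 19476599 fragments counted on genes, and TMM scaling factors from 0.824 to 1.39, the highest of which belonged to control replicate 1. The targeted gene was not lower in the *svp*-labelled libraries. *svp* had 678, 1141 and 1168 counts in the controls, against 1480, 1214 and 1421 in the *svp*-labelled libraries (log2 fold change 0.35, standard error, SE, 0.39, edgeR adjusted p = 1.00), so each direction below is a difference between labels. In FPKM the groups of *svp* did not overlap, with 11.4, 18.5 and 18.6 FPKM in the controls and 21.7, 22.1 and 24.3 FPKM in the *svp*-labelled libraries (exact two-sided permutation p = 0.10, the lowest possible), beside 7.73% of the genes tested whose FPKM was higher without overlap. Fat body markers were detected in every library, 7 of 7 measured in each. Their summed level was from 58380 to 181136 CPM (counts scaled to the effective library size that TMM gives), lowest in control replicate 1. The sum is weighted toward *Yp1*, *Yp2* and *Yp3*, which had 12667.9, 19521.5 and 22361.5 CPM in that library. The other markers were lower there, with 3452 CPM for *apolpp*, 183 for *Lsd-1*, 174 for *bmm* and 20.0 for *AkhR*. The 5 oenocyte markers measured were lowest in that library too, at 6038 CPM against 12094 to 23225 CPM in the others. RNA of other tissues was present. The 20 ovary markers were detected in all 6 libraries and summed to between 588 and 2034 CPM in the controls and between 1163 and 3214 CPM in the *svp*-labelled libraries. Sums for 12 muscle markers reached 2131 CPM in control replicate 2, against 313 to 789 CPM elsewhere. Midgut markers summed to between 439 and 1952 CPM, with 6 of 12 detected in every library, hemocyte markers (5) to between 562 and 1813 CPM, and neuron markers (4) to between 10.3 and 31.9 CPM, all 3 with overlapping groups.

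No difference between the groups passed the test for any of the 8 transcripts. In edgeR's quasi-likelihood test, adjusted after Benjamini and Hochberg, 0 of the 8 passed a threshold of 0.05, where 0.0970% of the 9277 genes tested did (9 genes). Unadjusted, 0 of the 8 lay under 0.05, beside 4.99% of all genes. With DESeq2, too, 0 of the 8 were called (1.23% of its 11875 genes). With limma on log2 FPKM 0 of the 8 were, beside 55 and 53 of the 9277 genes at pseudocounts of 1 and 0.1. The CPM ranges of the groups overlapped for each of the 8, whereas 9.32% of the genes tested had ranges that did not overlap. Fitted log2 fold changes were above 0 for 6 of the 8 and below 0 for *Eip78C* and *Eip93F*, with a median of 0.22, beside a median of -0.06 over all genes tested. All 8 passed the filter on low counts. The smallest fold change called in either direction among the 9 genes was 2.30 on the log2 scale.

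**Figure D1:**
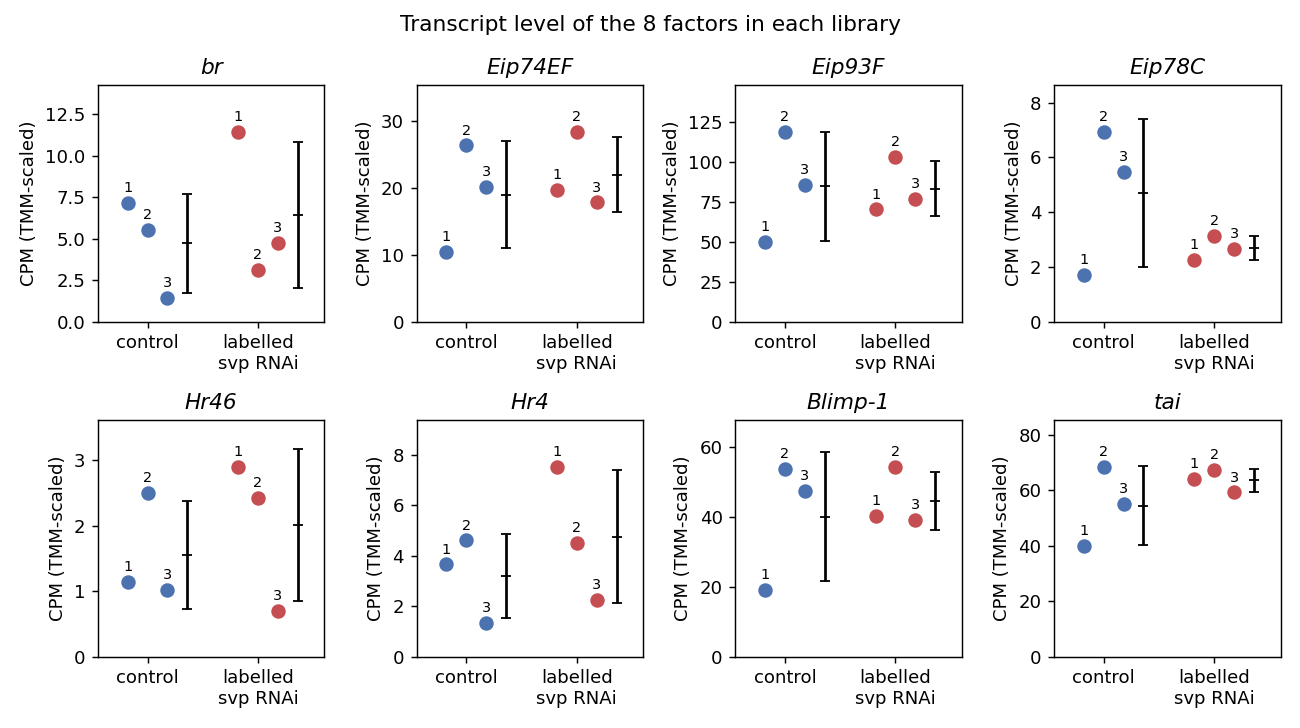
CPM on TMM-scaled totals (linear axes from 0) of each of the 8 transcripts in the 3 control libraries (blue) and the 3 *svp*-labelled libraries (red), numbered by replicate, with the mean and SD of each group as a black bar. The groups overlapped in every panel, and control replicate 1 was the lowest of the 6 libraries for *Eip74EF*, *Eip93F*, *Eip78C*, *Blimp-1* and *tai*.

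The levels of the 8 genes differed from each other more than they differed between groups. On the FPKM scale, which divides by transcript length and allows comparison between genes, *Eip93F* and *Blimp-1* were the highest, with means over the 6 libraries of 8.59 and 8.50 FPKM, followed by *tai* at 6.42 and *Eip74EF* at 3.39 FPKM. *br* (1.26 FPKM), *Eip78C* (0.826 FPKM), *Hr4* (0.448 FPKM) and *Hr46* (0.305 FPKM) formed the lower end. The place of *Hr46* is uncertain, because it shares exonic bases with another gene, as described below. The order of *Eip93F* and *Blimp-1* was not settled, since *Eip93F* was above *Blimp-1* in 2 of 6 libraries, and *br* was above *Eip78C* in 3 of 6. *Eip74EF* lay below *tai* and above *br* in 6 of 6 libraries. Of the 13475 genes with at least 1 count, 58.6% had a lower mean FPKM than *Eip93F* and 27.3% a lower mean FPKM than *Hr46*. Among the genes that surround these factors in the pathway, *usp* had a mean of 25.2 FPKM, *Eip75B* 16.4 FPKM and *EcR* 8.22 FPKM.

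**Figure D2:**
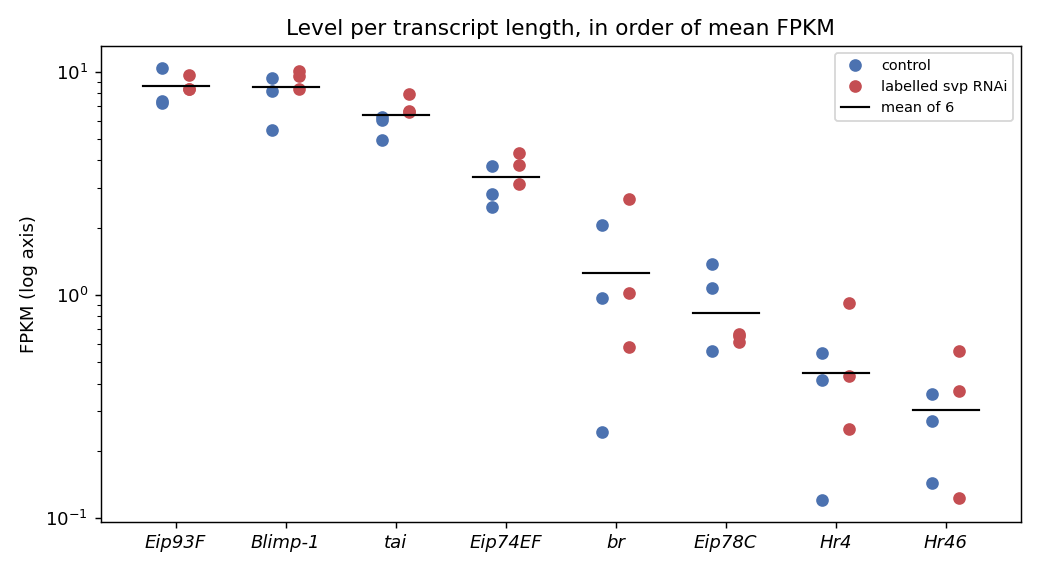
FPKM (log axis) of the 8 transcripts in order of their mean over 6 libraries (black line), with controls in blue and *svp*-labelled libraries in red. *Eip93F*, *Blimp-1*, *tai* and *Eip74EF* sit above 2 FPKM in every library, and *Hr4* and *Hr46* stay below 1 FPKM.

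The length that stands behind the FPKM values bears on this order. For 6 of the 8 genes the length the authors used equals, to within 1 base, the mean length of the transcripts annotated in BDGP6, and it is shorter than the gene length listed in the files. The gap was widest for *br*, at 4834 against 16093 bases. With the listed length in its place, *br* fell behind *Eip78C*, and *tai* moved ahead of *Blimp-1*. *br* has 16 annotated transcripts from 3375 to 9822 bases long, and its zinc finger isoforms were counted together.

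*Eip93F* (FBgn0264490; chromosome 3R from 21949114 to 22014539) encodes a helix-turn-helix factor of the Pipsqueak type that specifies the adult stage and promotes autophagy and cell death in larval tissues. Its CPM was 49.8, 118 and 85.5 in the controls and 70.3, 103 and 76.6 in the *svp*-labelled libraries. All 3 *svp*-labelled libraries lay within the range of the controls. The means were 84.6 ± 34.3 CPM (SD, n = 3) and 83.2 ± 17.2 CPM (SD, n = 3), with a log2 fold change of -0.02 (SE 0.34, 95% interval -0.83 to 0.79, edgeR adjusted p = 1.00). Its sign depended on scaling, and was positive with upper quartile scaling (0.02).

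*Eip74EF* (FBgn0000567; chromosome 3L from 17558672 to 17619325), an early gene that encodes ETS-domain factors, had 10.5, 26.4 and 20.1 CPM in the controls and 19.8, 28.3 and 17.8 CPM in the *svp*-labelled libraries. Control replicate 1 was the lowest and *svp*-labelled replicate 2 the highest. Its fitted change was 0.21 on the log2 scale (SE 0.37, 95% interval -0.68 to 1.10, edgeR adjusted p = 1.00), and -0.05 without control replicate 1.

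*Blimp-1* (FBgn0035625; chromosome 3L from 5630983 to 5652094) encodes a zinc finger repressor that delays the expression of *ftz-f1* in prepupae. It had 19.0, 53.6 and 47.5 CPM in the controls and 40.3, 54.2 and 39.1 CPM in the *svp*-labelled libraries. Apart from control replicate 1, the 5 libraries lay between 39.1 and 54.2 CPM. A log2 fold change of 0.15 was fitted (SE 0.39, 95% interval -0.78 to 1.09, edgeR adjusted p = 1.00), and it turned to -0.15 without control replicate 1.

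*tai* (FBgn0041092; chromosome 2L from 9166778 to 9250211) encodes a coactivator that binds EcR and also the juvenile hormone receptors Met and Gce. Its CPM was 39.8, 68.4 and 55.0 in the controls and 64.2, 67.5 and 59.2 in the *svp*-labelled libraries. It varied least of the 8, with 1.72-fold between the highest and the lowest library. edgeR fitted a log2 fold change of 0.23 (SE 0.24, adjusted p = 1.00), whose 95% interval, from -0.34 to 0.80, was the narrowest of the 8. On the FPKM scale, which uses plain library totals, the groups of *tai* did not overlap, with 6.05, 6.27 and 4.96 FPKM in the controls and 7.97, 6.60 and 6.69 FPKM in the *svp*-labelled libraries (p = 0.10 by an exact permutation test, two-sided, the lowest value possible with 3 libraries a group). FPKM did not overlap, with the *svp*-labelled libraries higher, for 7.73% of the genes tested.

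The 3 nuclear receptor genes of the group were expressed at low levels. *Eip78C* (FBgn0004865; chromosome 3L from 21226609 to 21266503) encodes a receptor related to Eip75B that is induced early by ecdysone, and it is required in the ovary for follicle development. It had 40, 102 and 81 counts in the controls, against 50, 44 and 46 in the *svp*-labelled libraries, or 1.70, 6.92 and 5.48 CPM against 2.26, 3.15 and 2.67 CPM. Control replicates 2 and 3 lay above all other libraries, and control replicate 1 below them. On the log2 scale the fitted difference was -0.80 (SE 0.53, 95% interval -2.06 to 0.47, edgeR adjusted p = 1.00), the largest of the 8 in size. *Eip78C* gave the lowest adjusted p of any of the 8 genes under any setting tried, which was 0.212 without control replicate 1 (log2 fold change -1.17, unadjusted p = 0.0098 in edgeR). In that fit 13.7% of all genes had an unadjusted p under 0.05 and 0.641% passed the adjusted threshold. Without that library, 29.8% of the genes tested had CPM that did not overlap between the groups, *Eip78C* among them.

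*Hr4* (FBgn0264562; chromosome X from 1941940 to 2007956) encodes a receptor that represses early genes and acts in the prothoracic gland and fat body of larvae. It had 86, 68 and 20 counts in the controls, against 166, 63 and 39 in the *svp*-labelled libraries, or 3.66, 4.61 and 1.35 CPM against 7.52, 4.51 and 2.26 CPM. *svp*-labelled replicate 1 was the highest and control replicate 3 the lowest. Its log2 fold change of 0.57 (SE 0.59, 95% interval -0.84 to 1.98, edgeR adjusted p = 1.00) fell to 0.07 without *svp*-labelled replicate 1. The shared end of *Hr4* and *CG4406*, on the other strand, covers 46 exonic bases.

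*Hr46* (FBgn0000448; chromosome 2R from 10203995 to 10237348) encodes a receptor that represses early genes and activates *ftz-f1*. With 27, 37 and 15 counts in the controls, against 64, 34 and 12 in the *svp*-labelled libraries, it had the fewest counts of the 8, and the count of 12 has an exact 95% Poisson interval from 6.20 to 21.0 that covers counting error only. CPM was 1.15, 2.51 and 1.01 against 2.90, 2.43 and 0.695. The extremes of the 6 libraries were both labelled *svp* RNAi, and the log2 fold change was 0.38 (SE 0.64, 95% interval -1.16 to 1.91, edgeR adjusted p = 1.00). The annotated gene *CG12912* lies within *Hr46* on the same strand and had 0 counts in all 6 libraries. It shares 6466 of the 10465 exonic bases of *Hr46*. How reads in shared bases were assigned is not given in the sources used here, so the level of *Hr46* is uncertain. It would be too low if such reads were left uncounted.

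*br* (FBgn0000210; chromosome X from 1575132 to 1664869) varied most, with 8.04-fold between the highest and the lowest library. It had 169, 82 and 21 counts in the controls, against 252, 44 and 82 in the *svp*-labelled libraries, or 7.19, 5.56 and 1.42 CPM against 11.4, 3.15 and 4.75 CPM. Both groups held high and low libraries. Its log2 fold change was 0.45 (SE 0.69, 95% interval -1.20 to 2.09, edgeR adjusted p = 1.00), and it turned to -0.26 without *svp*-labelled replicate 1. *br* shares 189 exonic bases with *Mur2B*, which lies on the other strand and had between 516 and 968 counts per library.

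The spread of the 8 genes across libraries followed a small number of patterns, and the CPM of each of the 8 overlapped between the groups. In CPM, *Eip93F*, *Eip74EF*, *Blimp-1* and *tai* were all lowest in control replicate 1. The highest library of each was control replicate 2 or *svp*-labelled replicate 2. This order depended on scaling for *tai*. On the FPKM scale, which uses plain library totals, *tai* was lowest in control replicate 3 (4.96 FPKM, against 6.05 FPKM in control replicate 1). It was highest there in *svp*-labelled replicate 1 (7.97 FPKM). The other 3 were still lowest in control replicate 1, but *Eip93F* had 7.28 FPKM in it against 7.43 FPKM in control replicate 3. *Eip75B*, which encodes a heme-binding nuclear receptor that is among the earliest ecdysone targets, had 50.2, 126 and 94.2 CPM in the controls and 91.3, 106 and 82.1 CPM in the *svp*-labelled libraries. The ratio of *Eip93F* counts to *Eip75B* counts within a library lay between 0.770 and 0.993, and that of *Eip74EF* to *Eip75B* between 0.209 and 0.267. The ratio of *Blimp-1* to *Eip75B* ranged from 0.379 to 0.512 and that of *tai* to *Eip75B* from 0.544 to 0.794. These 4 ratios thus varied by at most 1.46-fold over the 6 libraries, less than any of the 4 transcripts varied in CPM. By contrast, the ratio to *Eip75B* varied 2.34-fold for *Eip78C*, 3.75-fold for *Hr46*, 5.74-fold for *Hr4* and 9.51-fold for *br*. The share of all genes with ratios to *Eip75B* as steady as those of the first 4 was not counted. Such ratios do not depend on how the libraries are scaled. The ratio of *Eip78C* to *Eip75B* was 0.0339, 0.0551 and 0.0581 in the controls, and 0.0248, 0.0297 and 0.0325 in the *svp*-labelled libraries. These values did not overlap between the groups, which also held for the ratio to *Eip75B* of 11.0% of the genes tested.

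*br*, *Hr4* and *Hr46* had their highest level in *svp*-labelled replicate 1. The lowest library was control replicate 3 for *br* and *Hr4*, and *svp*-labelled replicate 3 for *Hr46*. The sum of the ovary markers was also highest in *svp*-labelled replicate 1 (3214 CPM) and lowest in control replicate 3 (588 CPM). This sum is weighted toward the abundant vitelline membrane genes. The mean log2 CPM of the same 20 markers was also highest in *svp*-labelled replicate 1 (6.09) but lowest in *svp*-labelled replicate 2 (3.11, against 3.51 in control replicate 3), so the shared lowest library depended on the summary. Singly, 13 of the 20 markers were highest in *svp*-labelled replicate 1, 6 were lowest in control replicate 3 and 9 were lowest in *svp*-labelled replicate 2. In *svp*-labelled replicate 2, *Hr4* (4.51 CPM) and *Hr46* (2.43 CPM) each lay above 3 of the other 5 libraries. *br* (3.15 CPM) lay there above control replicate 3 (1.42 CPM) only. The order of the 6 libraries by *Eip93F* was the exact reverse of their order by 2 of the 20 markers, *osk* and *otu*, and not by the others, *vas* among them. *osk*, a germline transcript, had 370, 71.5 and 178 CPM in the controls and 250, 86.4 and 188 CPM in the *svp*-labelled libraries, and it was singled out after its values were seen. The part of ovary RNA in these patterns was not tested, and in tissue samples fewer cells of a type and less RNA per cell cannot be told apart. With the mean log2 level of the 20 ovary markers as a covariate, an alternative chosen after seeing the data, edgeR called 0 of the 8 genes and 0.162% of the genes tested.

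**Figure D3:**
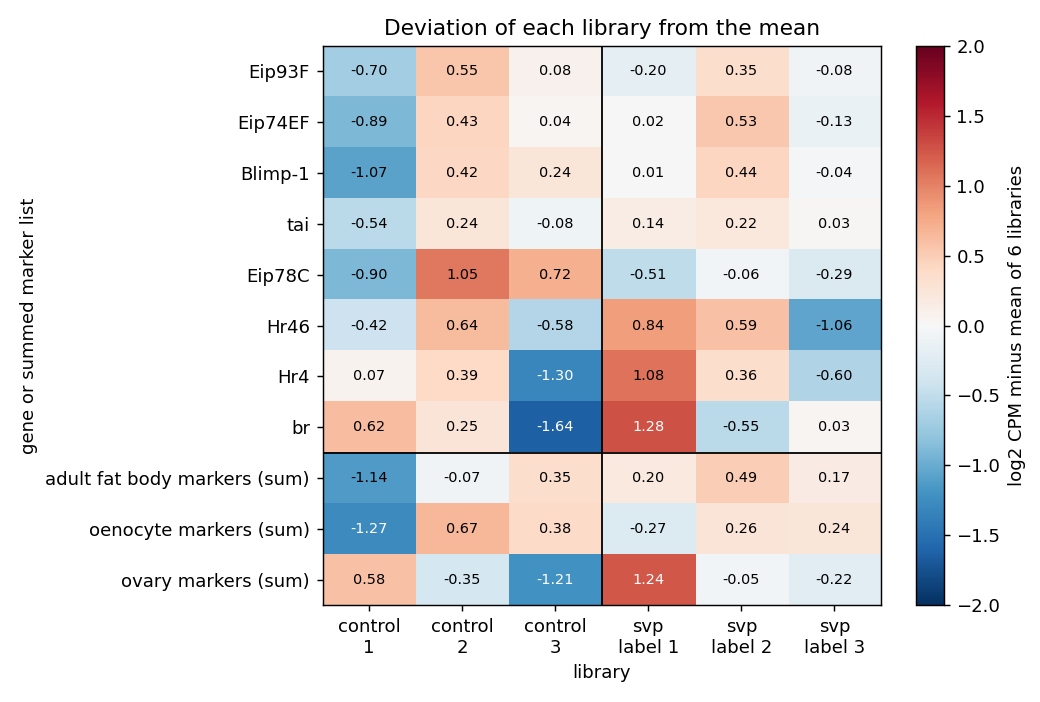
Deviation of log2 CPM from the mean of the 6 libraries, as numbers and color, for the 8 transcripts and for the summed levels of adult fat body, oenocyte and ovary markers. Control replicate 1 is low for *Eip93F*, *Eip74EF*, *Blimp-1*, *tai* and *Eip78C* and for the fat body and oenocyte markers, whereas *br* and *Hr4* share their highest and lowest library with the summed ovary markers, the lowest of which differs by the mean log2 level.

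Likeness of pattern was measured over the 6 libraries as the root mean square difference of log2 CPM after each gene was centered on its mean. The 2 closest genes were *Cyp4p1* (0.047) and *RhoGAP15B* (0.057) for *Eip93F*, *AdamTS-A* (0.052) and *betaTub97EF* (0.055) for *Blimp-1*, and *Sxl* (0.058) and *Gdh* (0.069) for *tai*. For *Eip74EF* they were *CR45517* (0.069) and *mew* (0.072), and for *Eip78C* they were *CR10102* (0.063) and *CG13012* (0.066). Many genes shared these patterns, with 521 genes within 0.2 of *Eip93F*, 587 of *tai*, 317 of *Blimp-1*, 250 of *Eip74EF* and 81 of *Eip78C*. Fewer genes lay close to *Hr4*, *Hr46* and *br*. *CG33258* (0.149) and *CR45631* (0.159) were closest to *Hr4*, and they were the only 2 genes within 0.2 of it. The closest genes to *Hr46* were *Zip71B* (0.205) and *CG31904* (0.303), and those to *br* were *Tmhs* (0.258) and *mGluR* (0.285), so 0 genes lay within 0.2 of either. Low counts add sampling noise to these distances. The distances also depend on how far a gene itself varied, from 1.72-fold for *tai* to 8.04-fold for *br*. A gene that varied little thus has more genes within 0.2 of it, so these numbers do not measure how common a pattern is.

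The other genes of ecdysone signaling were compared as a list of 45, all of which the files hold. Of these, 34 had at least 1 count and 30 passed the filter. edgeR called 0 of the 30, where 0.0970% of all genes tested were called, and 3 had an unadjusted p under 0.05, beside 4.99% of all genes. With DESeq2, 3 of the 33 it tested were called, of which 1 was higher (0.522% of all genes were called higher) and 2 were lower (0.707% of all genes). The CPM of the groups did not overlap for 2 of the 30 that were higher and 2 that were lower, beside 418 and 447 of the 9277 genes tested. Fitted log2 fold changes were above 0 for 17 of the 30 and below 0 for 13, with a median of 0.02 beside -0.06 over all genes tested.

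The 2 receptor subunits overlapped between the groups. *EcR* had 54.1, 30.8 and 37.3 CPM in the controls and 47.0, 30.6 and 46.2 CPM in the *svp*-labelled libraries (log2 fold change 0.02, SE 0.29, 95% interval -0.67 to 0.70, edgeR adjusted p = 1.00). *usp* had 87.5, 44.5 and 66.2 CPM against 72.8, 57.5 and 70.5 CPM (log2 fold change 0.02, SE 0.28, 95% interval -0.65 to 0.68, edgeR adjusted p = 1.00). Both were highest in control replicate 1, the library in which the CPM of *Eip93F*, *Eip74EF*, *Blimp-1* and *tai* was lowest. *Oatp74D*, which encodes the importer that brings ecdysone into cells, had a log2 fold change of -0.23, and the coregulator genes *Smr*, *trr*, *rig* and *bon* lay between -0.28 and -0.03. The signs of *EcR* and *usp* changed with DESeq2's size factors (-0.0030 and -0.00039).

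The partners of Tai were tested as well. The CPM of *Met* was higher in every *svp*-labelled library than in any control, which also held for 418 of the 9277 genes tested. *Met* had 18.8, 14.0 and 15.5 CPM in the controls and 20.3, 19.2 and 19.7 CPM in the *svp*-labelled libraries. Its log2 fold change of 0.29 missed the threshold (SE 0.20, edgeR adjusted p = 1.00). *gce* had a log2 fold change of 0.11. The 8 other transcription factors of the list (*Eip75B*, *Hr39*, *ftz-f1*, *Kr-h1*, *crol*, *Sox14*, *vri* and *ab*) lay between -0.0065 and 0.19. Of these 8, edgeR called 0, where 0.0970% of all genes tested were called. For *Eip75B* the log2 fold change was 0.05 (SE 0.34, 95% interval -0.76 to 0.86, edgeR adjusted p = 1.00).

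The remaining 28 genes of the list are genes that ecdysone induces or regulates, and 13 of them were tested. Of the 11 genes of the *Eig71E* cluster, late genes that are induced in salivary glands by the early factors, 10 had 0 counts in all libraries and the other had at most 1 count in a library. A count of 0 allows up to 3 counts, or 0.215 CPM in the library with the smallest scaled total, for counting error only. *ImpE2* was at 0 counts as well. *Eip71CD*, which encodes a methionine sulfoxide reductase, had 346, 538 and 573 counts in the controls, against 1759, 1388 and 1363 in the *svp*-labelled libraries. Its groups did not overlap (30.0 ± 13.3 CPM against 86.0 ± 11.5 CPM, SD, n = 3 each), beside 418 of the 9277 genes tested that were higher without overlap. The log2 fold change was 1.52 (SE 0.38, 95% interval 0.62 to 2.42), with an edgeR adjusted p of 0.436 and a DESeq2 adjusted p of 0.0156. Without control replicate 1, edgeR's adjusted p was 0.0491. For *Cyp18a1*, which encodes the enzyme that inactivates ecdysone, the fitted change was 0.65 on the log2 scale (SE 0.41, edgeR adjusted p = 1.00).

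*Fbp1* and *Fbp2* encode fat body proteins, the first of which is a direct target of the ecdysone receptor in larvae. *Fbp1* had 243, 143 and 31 counts in the controls, against 3, 5 and 4 in the *svp*-labelled libraries (edgeR adjusted p = 0.137). *Fbp2* had 105, 93 and 57 counts against 5, 5 and 0 (edgeR adjusted p = 0.177). DESeq2 called both, as the 2 genes of the list that it called lower. The study singled out *Fbp1* in these samples, and the list was made with earlier results of them known, so neither direction is independent evidence. The 6 larval fat body markers, which include them, summed to between 1934 and 3370 CPM in the controls and between 109 and 265 CPM in the *svp*-labelled libraries. Of these, 5 were tested, and all 5 were lower without overlap, beside 447 of the 9277 genes tested. edgeR called 1 of the 5, *Lsp2* (adjusted p = 0.018), where it called 0.0970% of all genes. DESeq2 called all 5 lower, beside 0.707% of all genes. The part of larval fat body RNA in the values of *Fbp1* and *Fbp2* was not tested.

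**Figure D4:**
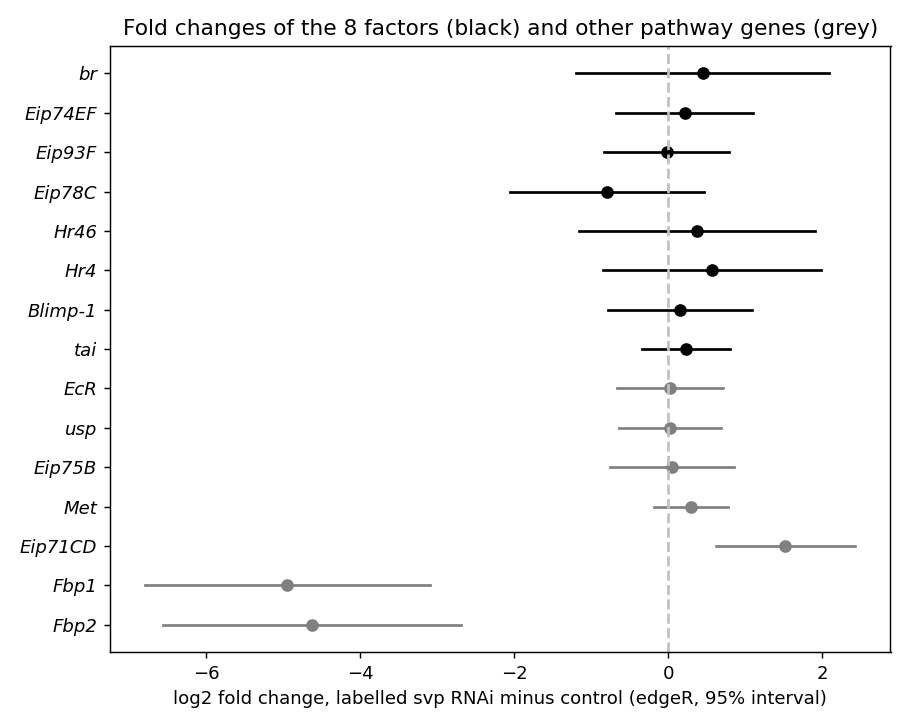
Fitted log2 fold change (*svp*-labelled libraries minus controls) with its 95% interval from edgeR, for the 8 transcripts (black) and for other genes of ecdysone signaling (grey). The interval includes 0 for each of the 8 and for *EcR*, *usp*, *Eip75B* and *Met*, and lies to one side of 0 for *Eip71CD*, *Fbp1* and *Fbp2*, none of which passed edgeR's adjusted threshold.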

How the data were processed

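RNA of abdominal fat body cells was sequenced as 3 control and 3 *svp* RNAi libraries. According to the methods, the authors aligned reads with TopHat to the Ensembl reference and counted them per gene with HTSeq, and the counts were deposited without normalization. Versions, strand setting and the treatment of ambiguous reads are not given in the sources used here. The library kit does not mark strand. The authors also deposited FPKM values, made from these counts, plain library totals and 1 length per gene. Coordinates matched BDGP6 for 16959 of 17558 genes. Totals ranged from 15648948 to 19476599 fragments.

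Genes with low counts were removed with edgeR's filterByExpr, which left 9277 genes. The quasi-likelihood test of edgeR 4.0.16 (R 4.3.3), on TMM-scaled totals, compared the groups. Its p-values were adjusted by the Benjamini-Hochberg method across every gene tested, and adjusted values under 0.05 were called. FPKM means were compared with exact permutation tests. DESeq2 1.42.0, limma 3.58.1 (pseudocounts of 1 and 0.1), other scalings and filters, a replicate block and the removal of each library were alternatives. No set test was made. Genes named are the 8 members, *svp*, *EcR*, *usp*, *Eip75B*, pathway genes with an unadjusted p under 0.05 or groups that did not overlap, and the 2 genes closest in pattern to each member. Other genes are named as parts of their lists, beside *CG12912*, *Mur2B* and *CG4406*, which overlap members. Members, lists and rules were chosen with earlier results of these data known. Markers of 9 tissues or cell types served as checks. No sequences are shown, and the RT-qPCR data were not analysed here.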

Additional observations from a re-analysis of the deposited data

How the results depend on the processing

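Of the 120 log2 fold changes of the 8 genes under 15 alternatives, 107 kept their sign, and 0 were called under any alternative. *Eip93F* turned positive with upper quartile scaling (0.018), limma on log2(FPKM + 1) (0.076) or on log2(FPKM + 0.1) (0.085), the replicate block (0.043) and the ovary marker score (0.047). *EcR* turned negative with DESeq2's size factors in edgeR (-0.0030), DESeq2 (-0.011) and the ovary score (-0.029), as did *usp* (-0.00039, -0.0089 and -0.0048). When each library was left out, the log2 fold changes ranged from -0.26 to 0.91 for *br*, from -0.055 to 0.52 for *Eip74EF*, from -0.27 to 0.30 for *Eip93F*, from -0.15 to 0.42 for *Blimp-1*, from -0.15 to 0.32 for *EcR*, from -0.20 to 0.32 for *usp* and from -0.21 to 0.37 for *Eip75B*. They kept their sign for *Eip78C* (-1.17 to -0.41), *Hr4* (0.07 to 0.92), *Hr46* (0.0019 to 0.89), *tai* (0.08 to 0.42) and *svp* (0.04 to 0.57). Differences in mean FPKM ranged from -0.291 to 0.821 for *br*, from -0.139 to 1.44 for *Eip93F*, from -0.011 to 0.209 for *Hr46* and from -0.018 to 0.315 for *Hr4*.

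The 9 genes called overall (2 higher, 7 lower) became 14 with DESeq2's size factors, 25 with no filter, 55 and 53 with limma at pseudocounts of 1 and 0.1, 146 with DESeq2 (62 higher, 84 lower), 15 with the ovary score and between 3 and 61 when a library was left out, with 61 without control replicate 1, where the median of all genes moved by 0.106, 5 and 4 without control replicates 2 and 3, and 3 without any 1 of the *svp*-labelled libraries. Of the pathway genes, DESeq2 called 3 of 33 (1.23% of all genes), and limma 2 of 30 at either pseudocount (55 and 53 of all 9277 genes). When a library was left out, edgeR called between 0 and 1. The 1 was *Eip71CD*, among 30 tested without control replicate 1, where 0.641% of all genes were called. Deviations from the group mean correlated at 0.50, 0.54 and -0.31 for same-numbered samples. For unlike-numbered samples they correlated at -0.68 to 0.50. The numbers were not taken as pairs. Deviations within a group are tied to their shared mean, so this check cannot exclude pairing. The fit with the replicate block called 27 genes. The causes of these shifts were not tested. Depth limits *Hr46*, *Hr4*, *br* and *Eip78C*, whose lowest counts were 12, 20, 21 and 40.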

Other observations

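Markers of the Malpighian tubules, the renal tubules of the fly, varied 6.70-fold in their summed level over the 6 libraries. The 4 markers listed (*Uro*, *NaPi-T*, *Irk3* and *CapaR*) were detected in all 6 libraries and had fitted log2 fold changes from 0.87 to 2.02, with summed levels of 25.8, 11.6 and 22.2 CPM in the controls and 77.7, 47.9 and 23.1 CPM in the libraries labelled *svp* RNAi. *NaPi-T* and *Irk3* were higher in every library labelled *svp* RNAi than in any control, as were 418 of the 9277 genes tested, while the sums overlapped. Of the 4 markers, 0 were called by edgeR (0.0970% of all genes), 2 had an unadjusted p under 0.05 (4.99% of all genes), and DESeq2 called 1 (1.23% of all genes). Summed levels rank *svp* RNAi replicate 1 highest, the library that was also highest for *br*, *Hr4* and *Hr46*. No explanation was tested.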
